A study of Homo sapiens with 6 samples.

Results

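The miRNAs described here carry a number of 1000 or higher in their name. They were selected on their measured values in these libraries, namely a value above 0 in at least 1 of them, which gave 243 of the 787 mature miRNAs listed. A further 12 entries with such numbers were left out by name, as miRNAs of the large 14q32 cluster or as known fragments of other RNAs. miR-1247, at the far end of the 14q32 imprinted region, was kept. Another 19 entries were listed at 0 in every library. The data are 6 small RNA libraries of A549, an epithelial cell line established from a human lung adenocarcinoma. The cells had received the empty plasmid pcDNA4 (3 libraries, "empty vector") or pcDNA4 carrying SMARCA4 (3 libraries, "SMARCA4"), and RNA was taken 48 h after transfection. SMARCA4 (BRG1) is a catalytic ATPase of SWI/SNF complexes, which remodel chromatin; the plasmid was given to restore it, per the labels. All libraries share the same cell line, plasmid backbone and lipid transfection. Both groups are therefore transiently transfected pools of a single line, and the design text calls the 3 replicates independent. In such bulk RNA, a change in every cell and a larger change in the transfected cells alone cannot be told apart.

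miRNAs are short RNAs cut from hairpins, and they guide repression of mRNAs that pair with the seed, bases 2 to 8 from the 5′ end. Names are numbered in the order in which miRNAs were submitted, so high numbers mark hairpins that were mostly found by deep sequencing. Many of these are young, scarce or found in few species, and some rest on reads that other RNAs can also give. A hairpin inside a gene on the same strand can be made from the transcript of that gene, its host. A mirtron is a hairpin whose ends are the ends of a short intron and are made by splicing.

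Mature sequences came from RefSeq (GRCh38.p14), where 211 of the 243 names matched. They are printed 5′ to 3′ with the seed in capitals. The set below holds the miRNAs whose values by library are given further on, chosen mainly by the smallest p without overlap between groups, and the paralogs miR-1269a and miR-1269b.
miR-3614-5p: cCACUUGGaucugaaggcugccc
miR-1303: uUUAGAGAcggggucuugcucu
miR-6840-5p: aCCCCCGGgcaaagaccugcagau
miR-1266-5p: cCUCAGGGcuguagaacagggcu
miR-4746-5p: cCGGUCCCaggagaaccugcaga
miR-2467-5p: uGAGGCUCuguuagccuuggcuc
miR-4455: aGGGUGUGuguguuuuu
miR-1269a: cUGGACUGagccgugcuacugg
miR-1269b: cUGGACUGagccaugcuacugg
miR-1269a and miR-1269b had the same seed and differed by the substitution G13A (miR-1269a first, position counted from 1 at the 5′ end). Reads of these paralogs can therefore be split between them by the counting.

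Few of the late-numbered miRNAs shared a seed with an older one. Of the 211 with a sequence, 5 (2.37%) had the seed of a listed miRNA numbered under 1000. Among those, miR-2682-5p has the seed of miR-34b-5p, of the p53-responsive miR-34 family, and of miR-449c-5p. In empty vector cells miR-2682-5p was at 109 ± 20.4 normalized read counts (reads scaled by the authors with 1 factor per library). With SMARCA4 it was at 68.8 ± 37.4 (mean and SD of 3 libraries a group, limma adjusted p = 0.317). The other 4 were scarce, with means over all libraries of 8.64 for miR-3118 (seed of miR-134-5p), 3.84 for miR-3129-5p (seed of miR-199b-3p), 0.394 for miR-1271-5p (seed of miR-96-5p) and 0.0704 for miR-5688 (seed of miR-495-3p). The following lines set the shared seeds of miR-2682-5p and miR-1271-5p beside their older partners.
miR-2682-5p: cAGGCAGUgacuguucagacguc
miR-34b-5p: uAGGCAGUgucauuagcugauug
miR-449c-5p: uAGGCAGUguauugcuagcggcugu
miR-1271-5p: cUUGGCACcuagcaagcacuca
miR-96-5p: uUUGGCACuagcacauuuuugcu
Within the late-numbered set, 4 seeds were held by more than 1 miRNA, and 8 miRNAs shared them. Beyond the miR-1269 pair, miR-6511a-3p and miR-6511b-3p differed by 2 edits, miR-1255a and miR-1255b-5p by 3, and the scarce miR-4510 (2 reads in all) lay 2 edits from let-7c-5p.

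The sequences were richer in G and C than those of the other listed miRNAs and more often short. Their median GC content was 56.5%, against 47.6% over the 439 other miRNAs with a sequence. A GC content of at least 70% was found in 39 of the 211 (18.5%) and in 11 of the other 439 (2.51%). Mature sequences under 20 bases made up 11.8% of the late-numbered set (25 miRNAs) and 1.37% of the others (6 miRNAs). The median length was 22 bases in both. These features were described without a test.

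Exact copies of 3 of the 211 mature sequences were found in other classes of RNA annotated in GENCODE 29. Nuclear tRNAs and pseudogenes were not among the classes searched, so more copies can exist. Names without a sequence, among them miR-4792 and miR-3609, could not be searched. The 3 sequences are shown because reads of the matching RNAs cannot be told from reads of the miRNA.
miR-4485-3p: uAACGGCCgcgguacccuaa
miR-3651: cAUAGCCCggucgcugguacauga
miR-4284: gGGCUCACaucaccccau
The sequence of miR-4485-3p is identical to bases 893 to 912 of MT-RNR2, the mitochondrial 16S ribosomal RNA of 1559 bases. That of miR-3651 forms the 3′ end (bases 110 to 133 of 133) of the small nucleolar RNA SNORA84. The sequence of miR-4284 lies in the mitochondrial tRNA MT-TF (bases 49 to 66 of 71). These 3 were not rare entries: their means were 889.8, 51.5 and 35.9 normalized read counts, and miR-4485-3p was the second most abundant miRNA of the set. In addition, by RefSeq positions (read without strand) a miR-3687 hairpin lies within the ribosomal RNA precursor gene RNA45SN2. The hairpin of miR-4521 overlaps the tRNA gene TRS-GCT4-3. Others overlap pseudogenes, among them miR-6723-5p (MTCO1P12) and miR-4461 (MTND4LP30). GENCODE 29 placed that miR-3687 hairpin in an intron of a non-coding gene instead, so copies in the ribosomal RNA precursor can have been missed. None of the 3 with an exact copy passed the test between groups (limma adjusted p = 0.521, 0.690 and 0.716).

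Host genes were read from GENCODE 29 on GRCh38, where 242 of the 243 names were placed on 249 hairpins, 22 names on more than 1. Introns of protein-coding genes on the same strand held 117 of the 243 (48.1%), against 197 of the other 500 miRNAs (39.4%). Exons of protein-coding genes overlapped more of the late-numbered names. Of the 243, 21 (8.64%) were classed as UTR and 20 (8.23%) as coding exon, against 12 (2.40%) and 8 (1.60%) of the others. Any shared base counted, so a hairpin lying mostly in an intron can be in these classes. For example, miR-4758-3p, classed as coding exon in LAMA5, also had both hairpin ends near the ends of an annotated intron. Of the 21 in a UTR, 15 were in a 5′ UTR and 6 in a 3′ UTR. Conversely, 13 (5.35%) lay in introns and 5 (2.06%) in exons of non-coding genes, against 94 (18.8%) and 52 (10.4%) of the others. A gene on the opposite strand only was found for 25 (10.3%) and no other gene for 25 (10.3%), against 14 (2.80%) and 79 (15.8%). These shares were described without a test.

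**Figure D1:**
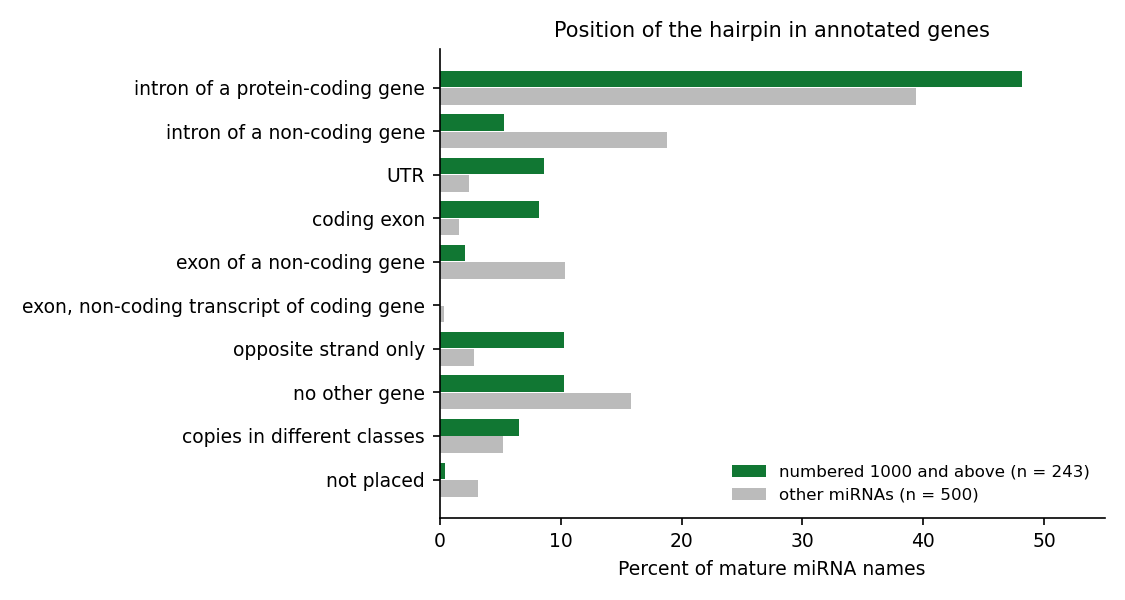
Percent of mature miRNA names whose hairpins fall in each class of gene overlap (GENCODE 29, same strand unless stated), for the 243 late-numbered miRNAs (green) and the 500 other miRNAs with a value above 0 (grey). Green bars are longer for UTRs (8.64% against 2.40%) and coding exons (8.23% against 1.60%), and shorter for introns of non-coding genes (5.35% against 18.8%).

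Hairpins with both ends within 10 bases of the ends of an annotated intron, the geometry of a mirtron, were found for 7 of the late-numbered names and for 1 of the 484 other names that were placed. These were miR-1226-3p (in DHX30), miR-1228-3p (LRP1), miR-1229-3p (MGAT4B), miR-1237-3p (RPS6KA4), miR-4758-3p (LAMA5), miR-6765-3p (JAG2) and miR-6786-3p (HGS). Apart from miR-6765-3p, with a mean of 106 normalized read counts, they were near the limit of detection. Their means ranged from 0.458 for miR-1228-3p and miR-1229-3p to 4.26 for miR-4758-3p.

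The libraries differed in depth and in how many of these miRNAs were seen. The normalized read counts could be turned back into whole reads, and the libraries held between 701885 and 7274329 reads, with SMARCA4 replicate 2 at 8.33 times the mean of the other 5. At least 1 read was found for 160, 169 and 171 of the late-numbered miRNAs in the empty vector libraries, taken in the order of their replicate numbers here and below. The SMARCA4 libraries gave 148, 210 and 156. The highest number was that of the deepest library. Calculated for the read total of the shallowest library, the numbers were 151, 156 and 151 in the empty vector libraries and 148, 139 and 152 in the SMARCA4 libraries. At equal depth the deepest library thus gave the lowest number. Since detection chose the members, these numbers were not tested.

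**Figure D2:**
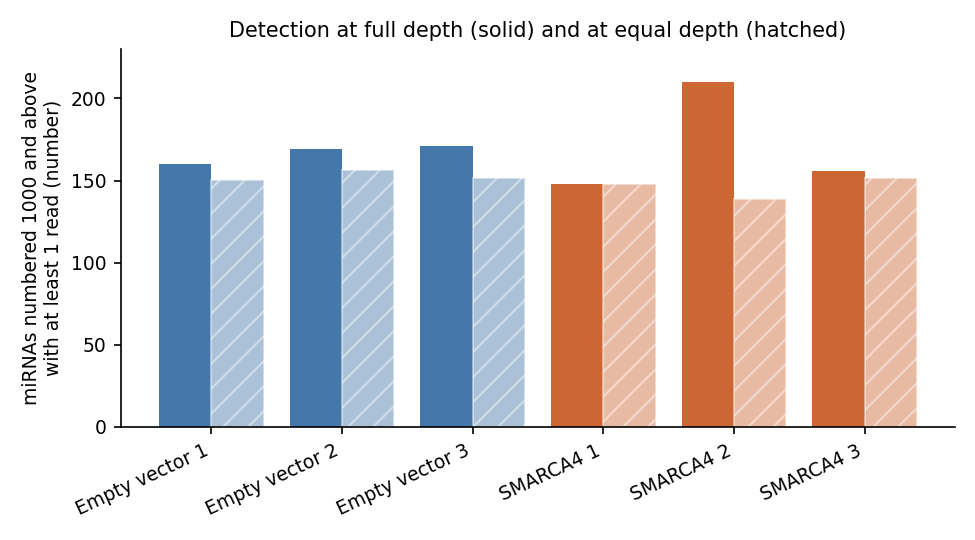
Number of late-numbered miRNAs with at least 1 read in each library, over all its reads (solid bars) and as calculated for the read total of the shallowest library (hatched bars), for empty vector (blue) and SMARCA4 (orange). SMARCA4 replicate 2 has the tallest solid bar (210) and the shortest hatched bar (139).

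Of the 243 miRNAs, 97 (39.9%) were seen in all 6 libraries, against 366 of the other 500 (73.2%). Only 1 library held 24 of them (9.88%), and 10 of those 24 were seen in SMARCA4 replicate 2 alone. A total of 99 had under 10 reads over all libraries together. The members at the edge of the rule were 18 miRNAs with a single read in all, among them miR-1278, miR-4785 and miR-6126, and just outside it were the 19 entries at 0. Where no read was seen, up to 3 remain possible. That limit equals 1.27 normalized read counts in the deepest library and ranged from 4.91 to 7.84 over the remaining 5. Such limits cover counting error only.

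The set was scarce and dominated by a few entries. The median of the mean normalized read counts was 3.13, against 37.5 for the other 500 miRNAs, and a mean of at least 100 was reached by 21 of the 243 (8.64%) and 187 of the 500 (37.4%). Of the 100 most abundant miRNAs of the table, 3 belonged to the set. Together the 243 held 0.491%, 0.646% and 0.894% of the reads in the empty vector libraries. With SMARCA4 they held 0.667%, 0.661% and 0.633%. The groups overlapped, and the mean shares of 0.677% ± 0.203 and 0.654% ± 0.0178 (SD, n = 3 each) gave p = 0.9 in an exact two-sided permutation test (3 against 3 cannot go under 0.1). Ligation efficiency differs between miRNAs, so levels of different miRNAs are only roughly comparable.

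The most abundant of them was miR-4792, whose hairpin (chromosome 3, 24521362 to 24521435, minus strand) lies opposite THRB-AS1. It was at 2368, 3195 and 8658 normalized read counts in the empty vector libraries and at 5026, 6472 and 4670 with SMARCA4. Empty vector replicate 3 was the highest of all, and the groups overlapped (limma adjusted p = 0.619). This miRNA alone made up between 27.9% and 54.9% of the late-numbered reads of a library, and 5.69 times the level of the next. Without it, the group shares were 0.406% ± 0.0588 and 0.406% ± 0.0390.

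Next in abundance came miR-4485-3p (described above as a copy of part of MT-RNR2), at 682 ± 281 normalized read counts against 1097 ± 775, with SMARCA4 replicate 2 the highest at 1992. Its hairpin (chromosome 11, 10508270 to 10508326) lies in MTRNR2L8, a nuclear copy of that mitochondrial gene. miR-1307-3p followed, and the 5p arm came after miR-1180-3p. They come from a hairpin in the 5′ UTR of ATP5MD (chromosome 10, 103394253 to 103394401, minus strand), a gene for a small subunit of the mitochondrial ATP synthase. miR-1307-3p was at 596, 841 and 543 normalized read counts in the empty vector libraries and at 858, 1352 and 841 with SMARCA4. The highest empty vector library lay marginally above the lowest SMARCA4 library (limma adjusted p = 0.266). miR-1307-5p was at 446 ± 59.2 against 378 ± 77.7, a difference within the spread (limma adjusted p = 0.645).

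The remaining members of the 10 most abundant also did not pass the test. miR-1180-3p, from an intron of the ciliary gene B9D1, was at 460 ± 24.8 normalized read counts against 398 ± 58.5, and its other arm was near 1 (mean 1.00). miR-7974 was at 466 ± 73.4 against 345 ± 72.0 and miR-4454 at 289 ± 76.7 against 438 ± 83.4. miR-7706, whose hairpin begins at an annotated transcript start of AKAP13, a scaffold of protein kinase A, was at 262, 257 and 332 in the empty vector libraries and at 382, 564 and 354 with SMARCA4. Its groups did not overlap, yet the log2 fold change of 0.59 (SE 0.30) had a limma adjusted p of 0.275. miR-3615, in the 5′ UTR of the membrane scaffold gene SLC9A3R1, was at 151 ± 72.3 against 304 ± 229, and miR-1304-3p, in an intron of TAF1D, a subunit of the RNA polymerase I selectivity factor, at 214 ± 23.8 against 227 ± 126. Their limma adjusted p values were 0.354 and 0.965.

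The comparison between groups covered 181 of the 243, those with a mean of at least 1 normalized read count over all libraries. Of these, 32 had a mean under 1 in a single group and passed through the other (14 low in empty vector, 18 low with SMARCA4). With SMARCA4, 2 of the 181 rose and 0 fell (limma on log2(value + 1), adjusted p under 0.05 over all 637 miRNAs tested). The shares called over all miRNAs were 0.942% higher and 0.471% lower, so 2 of 181 (1.10%) was near the background. At an unadjusted p under 0.05, 18 were higher and 7 lower (9.94% and 3.87%), against 11.3% in each direction over all miRNAs. Groups that did not overlap were found for 36 of the 181 (19.9%), against 31.1% of all 637. On the recovered reads edgeR called 2 of the 181 (1.88% of all) and DESeq2 8 of the 73 to which it gave an adjusted p (11.8% of all). The median log2 fold change was 0.11 over the 181 and −0.05 over all 637. The sign of the first was not stable: it was −0.10 after each library was brought to an equal total, a scaling that moved the median of all miRNAs by −0.26, and −0.10 without SMARCA4 replicate 2. Leaving out that library gave 3 calls among the 181, miR-1303 being the addition, with 6.44% of all miRNAs called.

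**Figure D3:**
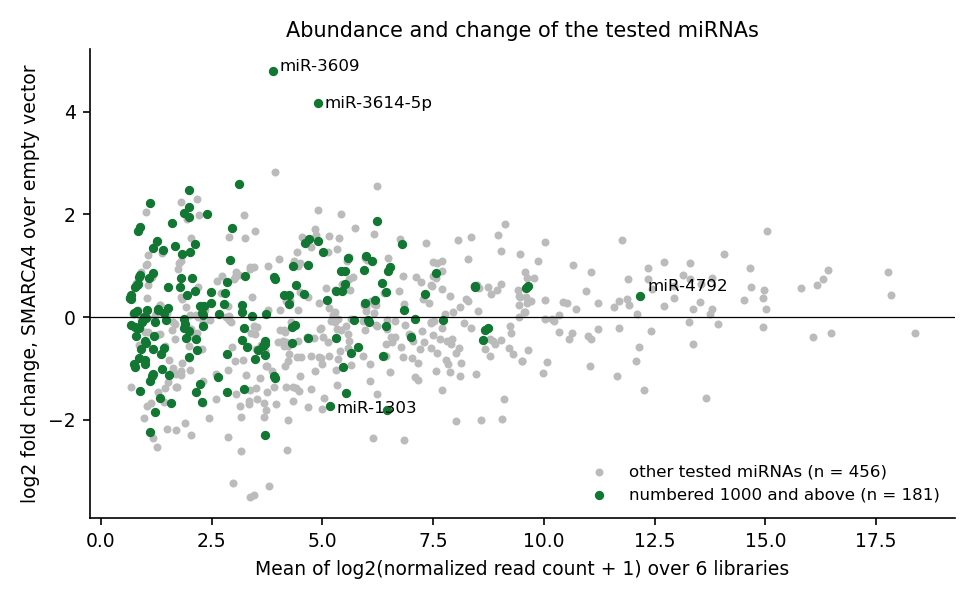
log2 fold change of SMARCA4 over empty vector (limma, log2(value + 1)) against the mean log2 level over 6 libraries, for the 181 tested late-numbered miRNAs (green) and the 456 other tested miRNAs (grey). miR-3609 (4.80) and miR-3614-5p (4.17) lie above all other points, and most green points lie at the low end of the level axis, with miR-4792 as the exception at the right.

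The 2 that rose were scarce in empty vector cells, where miR-3614-5p was nonetheless seen in every library. miR-3614-5p lies in the 3′ UTR of TRIM25 (chromosome 17, 56891270 to 56891355, minus strand), a ubiquitin ligase of antiviral RNA sensing. It was at 5.66, 3.80 and 9.81 normalized read counts without SMARCA4, and with it at 112, 240.4 and 73.2. In the empty vector libraries 3 reads equal 5.66, 5.71 and 4.91 normalized read counts, so the size of the change rests on few reads there. Every SMARCA4 library was above every empty vector library, with the deepest the highest. The log2 fold change was 4.17 (SE 0.55, limma adjusted p = 0.0119). It was 3.71 without SMARCA4 replicate 2 (adjusted p = 0.00918), and the call was lost without empty vector replicate 1 (adjusted p = 0.0662) or SMARCA4 replicate 1 (adjusted p = 0.0508).

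miR-3609 lies in an intron of TRRAP (chromosome 7, 98881650 to 98881729, plus strand), a large scaffold protein of histone acetyltransferase complexes. It was at 0, 1.90 and 6.54 normalized read counts (0, 1 and 4 reads) in the empty vector libraries. With SMARCA4 it was at 107, 74.8 and 56.7, again without overlap, and here the deepest library was in the middle. The log2 fold change was 4.80 (SE 0.73, limma adjusted p = 0.0124). A pseudocount of 5 in place of 1 gave 3.48, so the size rests on few empty vector reads. The call was lost without empty vector replicate 1 (adjusted p = 0.0662), SMARCA4 replicate 1 (0.0806) or SMARCA4 replicate 3 (0.0853). mRNA of TRIM25 and TRRAP was not analysed here.

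Further miRNAs were higher with SMARCA4 in every library without passing the test. miR-6840-5p overlaps a coding exon of PILRB, an immune receptor gene (chromosome 7, 100356651 to 100356721, plus strand). It was at 15.1, 19.0 and 16.4 normalized read counts in the empty vector libraries and at 47.1, 49.0 and 49.6 with SMARCA4. Both groups were tight, and the log2 fold change was 1.48 (SE 0.38; limma adjusted p 0.0822). Its 3p arm had 1, 3 and 0 reads in the SMARCA4 libraries and 0 in the empty vector ones, too few to compare.

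Both miR-1269 paralogs, from chromosomes 17 and 4, were on the higher side. miR-1269b, whose hairpin (chromosome 17, 12917268 to 12917342, minus strand) lies opposite ARHGAP44, was at 73.5, 74.2 and 55.6 normalized read counts in empty vector libraries and at 204, 273 and 106 with SMARCA4 (log2 fold change 1.42; limma adjusted p 0.105). miR-1269a (chromosome 4, 66276824 to 66276928, plus strand, in no other gene) was at 3.77, 0 and 0 against 10.5, 11.4 and 4.72 (log2 fold change 2.47, limma adjusted p = 0.110). The groups did not overlap for miR-1269b. For miR-1269a the nearest values were 2 reads in each group, and the zeros allow more than 4.72, so its groups are not apart beyond counting error and its fold change rests on zeros. With 1 base between them, the lower of the paralogs can hold misassigned reads of the higher, and its difference is not separate evidence.

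miR-1266-5p, in an intron of the myosin gene MYO5C, was at 15.1, 13.3 and 13.1 normalized read counts against 39.2, 59.6 and 26.0 (log2 fold change 1.45, limma adjusted p = 0.110). miR-4746-5p, opposite UBXN6, was at 20.7, 17.1 and 21.3 against 44.5, 65.9 and 40.1 (log2 fold change 1.28, limma adjusted p = 0.110). In both, the deepest library was the highest while all SMARCA4 libraries lay above the empty vector ones. miR-7705, in the 3′ UTR of PABPC1, the cytoplasmic poly(A)-binding protein gene, was at 0, 3.80 and 8.18 against 23.5, 15.2 and 23.6 (log2 fold change 2.60; limma adjusted p 0.109). miR-1301-3p, in an intron of the DNA methyltransferase gene DNMT3A, was at 47.1, 20.9 and 27.8 against 62.8, 49.9 and 59.0 (limma adjusted p 0.235).

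**Figure D4:**
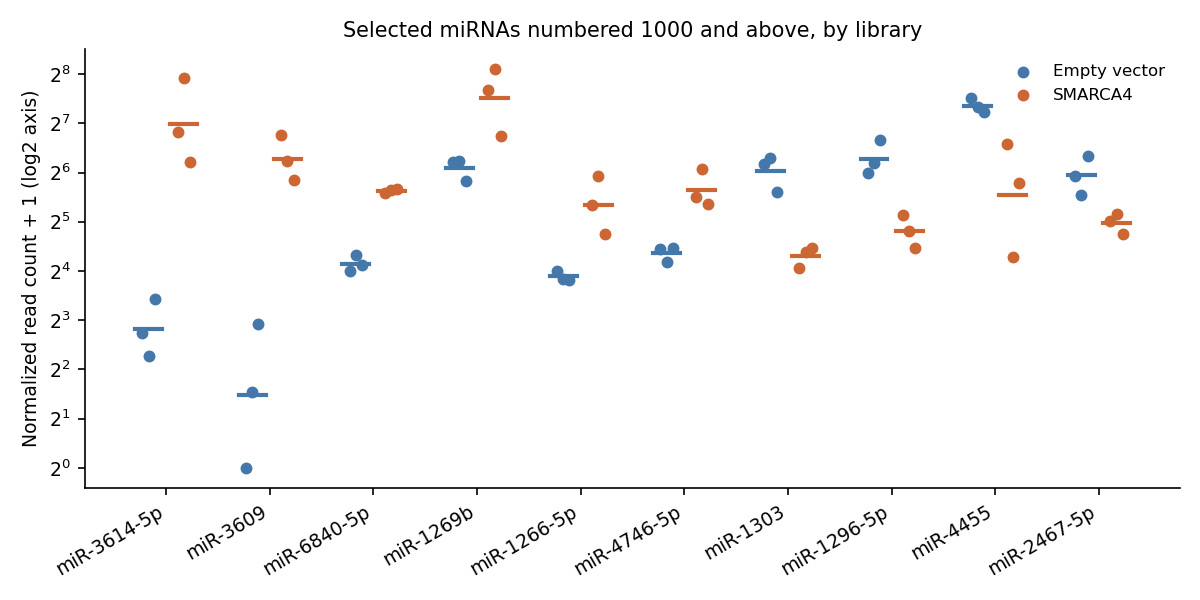
Normalized read count + 1 (log2 axis) of 10 late-numbered miRNAs in each empty vector (blue) and SMARCA4 (orange) library; dots are libraries and lines are means of the log2 values (n = 3). The groups do not overlap for any of the 10, which were mainly chosen for this. Only miR-3614-5p and miR-3609 passed the test over all miRNAs.

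On the lower side no miRNA of the set passed. miR-1303, a repeat-related miRNA with a hairpin in no other gene (chromosome 5, 154685776 to 154685861, plus strand), was at 71.7, 78.0 and 47.4 normalized read counts in the empty vector libraries and at 15.7, 19.9 and 21.3 with SMARCA4. All SMARCA4 libraries were lower than any empty vector library. The log2 fold change of −1.72 (SE 0.40) missed the threshold (limma adjusted p = 0.0656). It passed without SMARCA4 replicate 2 (adjusted p = 0.0462) and by DESeq2 (adjusted p = 0.0203).

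miR-1296-5p, in an intron of JMJD1C, a gene of the histone demethylase family (chromosome 10, 63372957 to 63373048, minus strand), was at 62.2, 72.3 and 99.7 against 34.0, 27.0 and 21.3 normalized read counts (log2 fold change −1.47; limma adjusted p 0.0830). miR-2467-5p, in an intron of the histone deacetylase gene HDAC4, was at 60.3, 45.6 and 80.1 against 31.4, 34.6 and 26.0 (log2 fold change −0.97, limma adjusted p = 0.182). The groups were apart for both, with the 3 SMARCA4 libraries close together. The short, GU-rich miR-4455 (chromosome 4, 184938383 to 184938440, minus strand, in no other gene) was at 181, 159.8 and 149 against 94.1, 18.6 and 54.3 (log2 fold change −1.80; limma adjusted p 0.109), and here the deepest library was the lowest.

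Further values on the lower side were those of miR-1908-5p, in the 5′ UTR of the fatty acid desaturase gene FADS1, at 22.2 ± 4.87 against 10.4 ± 6.06 normalized read counts, and of miR-1277-5p, in an intron of WDR44, at 16.4 ± 5.69 against 9.14 ± 1.18. Their limma adjusted p values were 0.248 and 0.390. miR-3607-3p was at 22.6, 112 and 8.18 against 7.84, 5.91 and 2.36 (log2 fold change −2.30; limma adjusted p 0.161). Empty vector replicate 2 was 4.96 times the next library, and without it the log2 fold change was −1.32 (limma adjusted p 0.350).

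Of 24 hairpins with both arms among the 243, 19 had both arms tested, and the arms had the same sign of change in 9 of them. Only 4 had both arms at a mean of at least 10, and the log2 ratio of the 3p to the 5p arm gave an adjusted p of 0.6 between groups for each (exact two-sided permutation tests, adjusted over the 4; 3 against 3 cannot go under 0.1 unadjusted). For miR-1307 the log2 ratio was 0.55 ± 0.51 in empty vector cells and 1.41 ± 0.45 with SMARCA4 (SD, n = 3 each; unadjusted exact p = 0.2). miR-1247, in an exon of DIO3OS at the far end of the 14q32 imprinted region (chromosome 14, 101560287 to 101560422, minus strand), had both arms higher with SMARCA4. The 5p arm was at 77.3, 47.5 and 73.6 normalized read counts against 139, 127 and 118, and the 3p arm at 28.3, 45.6 and 34.3 against 49.7, 71.0 and 49.6. Neither arm passed the test (limma log2 fold change 0.97 and 0.64), although the groups did not overlap for either. For the 3p arm the nearest values, 45.6 and 49.6, are within counting error of each other.

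Lists of related numbers gave 0 limma calls in either direction. Over all 637 tested miRNAs, 1.41% were called and 48.4% had a log2 fold change above 0. In lists this small such a share gives few or no calls, so the 0 says little about the lists. The repeat-related list (miR-1268, miR-1273, miR-1285, miR-1303 and miR-3118 entries) had 8 tested members, 3 higher and 5 lower, with a median log2 fold change of −0.15. miR-1285-3p was at 176 ± 140 against 112 ± 21.2 normalized read counts, where empty vector replicate 2 was the highest, and the entry miR-1268a@ was at 41.5, 119.8 and 60.5 against 83.7, 77.7 and 37.8, with overlap. What the @ mark in that name stands for is not known here. In the list of numbers often given with both arms, 11 of 23 tested members were higher and 12 lower, with a median of −0.01. Its members miR-4326 and miR-4677-3p were at 92.2 ± 15.2 against 81.1 ± 7.24 and at 63.9 ± 9.69 against 82.7 ± 22.8. Their limma adjusted p values were 0.786 and 0.591. The snoRNA-overlapping list had miR-3651 and miR-3607-3p as members, with log2 fold changes of 0.51 and −2.30. The mirtron list had 4 members among the 243, with at most 3 reads each and none tested. Of the DGCR8 hairpins, which sit in the gene of the cofactor of the nuclear miRNA-processing enzyme, only the arms of miR-1306 were seen, at 9 and 2 reads in all.

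SMARCA4 replicate 2 stood apart for many of these miRNAs. Of the 80 with a mean of at least 10, 42 (52.5%) had their highest value there, against 88 of 341 other miRNAs (25.8%). Its deposited total was 1.74 times the mean of the other 5 libraries. The median difference of that library from SMARCA4 replicates 1 and 3, on the log2(value + 1) scale, was 0.64 over the 80 and −0.03 over the 341. Of the 80, 8 were at least 3 times higher there than in any other library, as were 15 of the 341, and the difference was not tested. The most extreme was miR-4483, at 459 normalized read counts against 7.54 to 20.9 in the other libraries, which is 21.9 times the next. The others included miR-3960, which overlaps a coding exon of the transcription elongation kinase gene CDK9 (395 against at most 91.3), miR-7704, over a coding exon of the homeobox gene HOXD1 (368 against at most 106), and miR-6765-3p, in an intron of the Notch ligand gene JAG2 (313 against at most 103). None of the 8 passed the limma test between groups, and DESeq2 called miR-7704. Empty vector replicate 2 stood apart in the same way for miR-5701 (247 against at most 44.5) and miR-3607-3p, and for 4 of the 341. Across the 63 of the 80 with a sequence, the level in SMARCA4 replicate 2 relative to the other SMARCA4 libraries had a Spearman rho of 0.07 with GC content (Pearson r 0.11), over miRNAs that share the same libraries. The part of depth and of library preparation in these values was not tested.

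**Figure D5:**
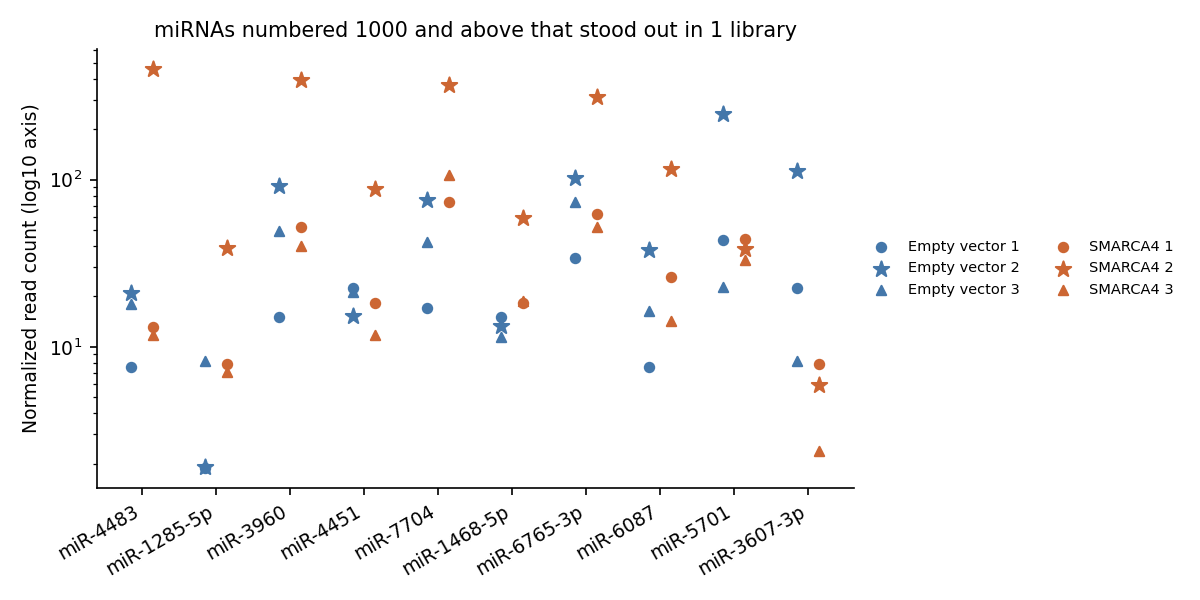
Normalized read counts (log10 axis) of the 10 late-numbered miRNAs with a mean of at least 10 that were at least 3 times higher in 1 library than in any other. Blue marks empty vector and orange SMARCA4; circles, stars and triangles are replicates 1, 2 and 3. Orange stars are highest for 8 miRNAs, led by miR-4483 at 459, and blue stars for miR-5701 and miR-3607-3p.

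The labelled cell type was set against marker miRNAs. Of 7 epithelial miRNAs, 6 were listed, with a summed level of 356 to 677 normalized read counts in empty vector libraries and 425 to 623 with SMARCA4. The members differed in direction: miR-200b-3p was at 458, 285 and 523 in empty vector libraries and at 186, 139.8 and 243 with SMARCA4. miR-141-3p was at 35.8, 19.0 and 39.2 against 196, 147 and 203, and miR-203a-3p at 3.77, 5.71 and 4.91 against 36.6, 40.1 and 42.5. miR-200c-3p, a defining member, was low at a mean of 7.80. Of 3 muscle miRNAs 2 were listed, miR-1-3p and miR-133a-3p, and they were at 0 in every library. The liver miRNA miR-122-5p was not listed. Of 2 neuronal miRNAs 1 was listed, and miR-124-3p was not. The listed miR-9-5p was at 139.5 to 146 in empty vector libraries. With SMARCA4 it was at 146 to 427, where the deepest library was the highest. Of 6 blood miRNAs 2 were listed, with sums of 5.71 to 47.1 and 31.7 to 88.9, and the part of these other markers in the results was not tested. The level of SMARCA4 mRNA was not analysed here.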

How the data were processed

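Small RNA was sequenced from 6 A549 libraries, and groups and replicate numbers were taken from the sample titles. The submitters' processing notes name bcl2fastq 2.18.0.12 and the build GRCh38. For the aligner, the counter and the miRNA annotation, names were not given in the sources used here. Each deposited value is a signal for 1 mature miRNA, in which the authors scaled reads by a single factor for each library; the table is titled TMM (trimmed mean of log ratios). Whole reads were recovered for 100% of values (tolerance 1e-06 reads), and 1 read was worth 0.422 to 2.61 normalized read counts. The labels speak of no molecular identifiers, so counting limits treat reads as if each were a separate molecule.

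limma 3.58.1 (R 4.3.3, mean-variance trend, group as the only term) was run on log2(value + 1) for the 637 miRNAs with a mean of at least 1, with Benjamini-Hochberg adjustment over all 637 and a threshold of 0.05; 150 miRNAs were not tested. This scale understates changes of scarce miRNAs. edgeR 4.0.16 (quasi-likelihood) and DESeq2 1.42.0 on recovered reads, array weights, the replicate block, other scalings, pseudocounts, filters and left-out libraries were alternatives. The fits were also run on simulated data with large changes of equal size and no outlying library. That run does not measure their accuracy on these data. For single values, exact permutation tests (two-sided) were used; detection was planned for such a test but is only described, since it chose the members. Equal-depth numbers use the formula for drawing reads without replacement. A hairpin that overlaps several transcripts was given the class coding exon before UTR before intron. Sharing any base with an exon counted as overlap.

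Named miRNAs were the 3 leading ones (miR-3614-5p, miR-3609, miR-1303), all that passed, up to 8 per direction by smallest p without group overlap and with a mean of at least 5, the 10 most abundant, other arms, and list members with a mean of at least 10. Others, such as miR-4483, were chosen after their values were seen. The members and lists were chosen with earlier results of these data known.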

Additional observations from a re-analysis of the deposited data

How the results depend on the processing

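The number of late-numbered miRNAs called was 2 as reported and 2 with pseudocounts of 0.5 or 5, without the filter or with a minimum mean of 10, under the 3 other scalings, no trend, the replicate block and edgeR. Array weights gave 11 (6 rose, 5 fell; 90 over all miRNAs, against 9) and DESeq2 8 (4 rose, 4 fell; 47 over all), where DESeq2 left 108 of the 181 without an adjusted p. Leaving out 1 library gave 0 to 3 calls (0 to 2 rose, 0 to 1 fell; 0 to 41 over all miRNAs), and a group of 2 libraries then relies on the spread pooled with the other group. The 0 calls came without empty vector replicate 1 or SMARCA4 replicate 1, where 19 and 21 of the 181 had an unadjusted p under 0.05. Whether the replicate numbers pair the libraries was not settled. Correlations of same-numbered deviations were weak, at 0.07, 0.09 and 0.01, and those of differently numbered ones ranged from −0.10 to 0.05. Of the 6 libraries, 5 correlated best with their own number. The replicate block gave 2 calls in the set and 13 over all. The median log2 fold change ranged from −0.10 to 0.34 over left-out libraries and was −0.10 with the same total. With at least 3 reads required, 101 miRNAs were detected per empty vector library and 117 per SMARCA4 library, and with at least 10 reads 55.3 and 73.0. Both differences rest on SMARCA4 replicate 2, and the order turns without it. At 3 reads the SMARCA4 libraries had 85, 177 and 90 and the empty vector libraries 100, 99 and 105. At 10 reads the SMARCA4 libraries had 48, 120 and 51 and the empty vector libraries 49, 55 and 62. Without the most abundant miRNA the shares were 0.406% in both groups, and without the 2 most abundant 0.367% and 0.361%. Of 681 values of 38 named miRNAs under the alternatives, 16 changed sign, all of miRNAs that did not pass. miR-1304-3p (−0.05) was 0.075 by edgeR, 0.076 by DESeq2 and −0.47 to 0.24 over left-out libraries. With array weights miR-1285-3p (−0.38) was 0.080, miR-1268a@ (−0.10) 0.053 and miR-1273g-3p (0.25) −0.16, the last also −0.056 with the same total. Over left-out libraries miR-1285-3p ranged from −0.75 to 0.23, miR-1268a@ from −0.44 to 0.32 and miR-1273g-3p from −0.44 to 0.97. miR-3651 (0.51) ranged from −0.16 to 1.05. The cause of these changes was not tested.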
